A study of Mus musculus with 6 samples.

Results

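The genes described here are 8 CC chemokines (Ccl2, Ccl3, Ccl4, Ccl6, Ccl7, Ccl9, Ccl17 and Ccl22) and E230016K23Rik, a long non-coding RNA gene (lncRNA) beside some of them on mouse chromosome 11. They were taken by symbol from the annotated expression table, where all 9 were found among 16111 genes. The 9 were chosen on the basis of known results of this comparison, their counts in the 6 libraries, so their differences between the groups are given as a description, with no test. Of the 9, 6 passed the filter on low counts and entered the fit of 11408 genes; Ccl7, Ccl17 and Ccl22 did not.

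The libraries came from macrophages grown from livers of C57BL/6 RCC fetuses at E13.5, with 3 wild-type (WT) libraries and 3 from Ahrr-deficient fetuses, written AhRR-/- in the labels' protocol. Ahrr encodes the repressor of the aryl hydrocarbon receptor, a transcription factor activated by ligands. Both groups were cultured over 5 weeks with 2% GM-CSF, which drives growth of macrophages, and the cells in suspension were harvested, so the data describe cultured cells and not fresh fetal liver. The labels give mouse numbers 1 to 3 in each group and do not name the allele. Whether a culture held cells of 1 fetus or of several is not given in the sources used here, so adjusted p-values measure the spread between these samples. PolyA RNA was sequenced as single reads of 75 bp.

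CC chemokines are small secreted proteins that attract leukocytes through G protein-coupled receptors, and macrophages are a main source of many of them. Ccl6 and Ccl9 are rodent chemokines that act mainly through Ccr1. Ccl3 and Ccl4 are inflammatory chemokines of activated macrophages, and Ccl3 also acts through Ccr1. Ccl2 and Ccl7 attract monocytes through Ccr2, and Ccl17 and Ccl22 attract T cells through Ccr4.

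Ccl6 and Ccl9 were the 2 most abundant chemokines of the set, and they lie beside each other, so their promoters were set side by side. RefSeq promoter windows on GRCm38.p6, from 250 bases before to 50 bases after the gene's start, matched 6 of the 9 genes by symbol: Ccl3, Ccl6, Ccl9, Ccl17, Ccl22 and E230016K23Rik. The 250 bases before the start are shown 5′ to 3′ for Ccl6 (chr11:83593088-83593337, minus strand) and Ccl9 (chr11:83578637-83578886, minus strand). Capitals mark the bases that are identical in the best local alignment of the 2 windows.
Ccl6: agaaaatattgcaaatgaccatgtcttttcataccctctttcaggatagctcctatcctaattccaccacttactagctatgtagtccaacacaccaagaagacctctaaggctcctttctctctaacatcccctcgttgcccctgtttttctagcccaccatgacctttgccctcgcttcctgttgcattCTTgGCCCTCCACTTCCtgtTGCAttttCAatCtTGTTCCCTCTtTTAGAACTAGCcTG
Ccl9: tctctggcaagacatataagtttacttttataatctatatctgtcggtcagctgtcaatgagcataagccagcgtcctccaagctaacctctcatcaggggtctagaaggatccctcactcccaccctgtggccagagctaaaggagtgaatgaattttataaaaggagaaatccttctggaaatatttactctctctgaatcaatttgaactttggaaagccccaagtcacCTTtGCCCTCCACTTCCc

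The alignment held 74 columns, of which 59 were identical (79.7%) and 7 were gaps. It ran from base -59 to base 15 in Ccl6 and from base -18 to base 49 in Ccl9, both relative to the start, so the shared stretch is placed differently at the 2 genes. Of the 59 identical bases, 46 lie before the start in Ccl6 but only 16 in Ccl9. The others lie after the start, in bases not shown. Among 32850 other promoter windows, that of Ccl9 had the highest alignment score against Ccl6, at 71, and the next window scored 41. The other 14 pairs among the 6 windows scored between 16 and 26.

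A search of the 6 windows on both strands covered 5 motifs. TATAAA, the letters of the TATA box, was found in Ccl9 alone, and in 13.6% of 32851 promoter windows. In Ccl9 it lies at base -92 on the gene's strand and at bases -94 and -224 on the opposite strand. The hits at -92 and -94 overlap. Whether these letters act as a TATA box was not tested. TGANTCA, the AP-1 element, was also found in Ccl9 alone, starting at base -53, and in 7.81% of all windows. The frame of the NF-kB element, GGG and CC around 5 free bases, was found in Ccl9 at base -35, in Ccl22 at bases -131 and -162, and in 50.8% of all windows. GCGTG, the core of the element bound by the aryl hydrocarbon receptor and its partner ARNT, was found in Ccl17 at base -52, in Ccl22 at base 42, and in 32.4% of all windows. TTCNNNGAA, the STAT element, was found in Ccl17 at base -99 and in 8.30% of all windows. None of the 5 motifs was found in the windows of Ccl6, Ccl3 or E230016K23Rik, which says only that these letters are not in those windows.

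Total counts ranged from 6300421 to 21939809 in the WT libraries and from 3556106 to 41668336 in the Ahrr-deficient libraries. The detection floor was set at 3 counts and equalled between 0.0720 and 0.844 counts per 1000000 counts (CPM). Ahrr was measured at 4.60, 4.29 and 5.32 CPM in WT libraries 1 to 3 and at 2.25, 2.57 and 1.21 CPM in Ahrr-deficient libraries 1 to 3, a log2 difference of -1.21 (SE 0.26, adjusted p = 0.0151, edgeR), so reads of the gene remained in all 3 deficient libraries. That call was lost on thinning the reads and without WT replicate 1 or 3, with differences from -1.29 to -1.06. All 7 macrophage markers used were detected, with a summed level of 20820 to 26294 CPM in WT and 14837 to 22181 CPM in Ahrr-deficient libraries. In the fit 1 of the 7, Csf1r, was lower. Of 6 dendritic cell markers 3 had a row (Flt3, Cd209a and Ccr7 had none), with a summed level of 57.6 to 62.1 CPM in WT and 72.0 to 93.2 CPM in Ahrr-deficient libraries, and Clec9a was higher. No marker of B cells, mast cells and basophils, or eosinophils had a row, and neutrophil markers summed to at most 2.38 CPM and hepatocyte markers to at most 0.864 CPM. Of 6 markers of T, NK and innate lymphoid cells only Il7r had a row, at 34.5 to 75.9 CPM in WT and 17.4 to 38.8 CPM in Ahrr-deficient libraries. Erythroid markers summed to 13.3 to 22.6 CPM in WT and 2.76 to 4.78 CPM in Ahrr-deficient libraries, with Epor lower and the globins without a row. The part of other cells in the chemokine differences was not tested, and in such bulk samples fewer cells of a type and less RNA per cell cannot be told apart.

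Ccl6, the Ccr1 ligand first found in GM-CSF-treated myeloid cells, was the most abundant chemokine of the set in every library. It is ENSMUSG00000018927.3, at chr11:83587882-83593087 on the minus strand (GRCm38). The level of Ccl6 was 8778, 5722 and 7209 CPM in WT libraries 1 to 3, and 13703, 18181 and 17244 CPM in Ahrr-deficient libraries 1 to 3. The groups did not overlap, and the lowest deficient library was above the highest WT library. Mean Ccl6 was 7237 ± 1528 CPM in WT and 16376 ± 2362 CPM in Ahrr-deficient libraries (SD, n = 3), a ratio of 2.26. The fitted log2 difference, Ahrr-deficient minus WT, was 1.11 (SE 0.16).

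Ccl6 alone held 0.878%, 0.572% and 0.721% of all counts in WT libraries 1 to 3, where it was the 8th, 13th and 8th most counted gene. In Ahrr-deficient libraries 1 to 3 it held 1.37%, 1.82% and 1.72% of all counts, and ranked 5th, 3rd and 3rd. It was thus among the genes with the most reads in both groups.

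Ccl9, also a Ccr1 ligand of myeloid cells, is ENSMUSG00000019122.8 at chr11:83572919-83578636 on the minus strand. Its level was 1859, 1454 and 1575 CPM in WT libraries 1 to 3, and 2848, 3669 and 2974 CPM in Ahrr-deficient libraries 1 to 3. As for Ccl6, the groups did not overlap and the deficient libraries were the higher ones. Mean Ccl9 was 1629 ± 208 CPM in WT and 3164 ± 442 CPM in Ahrr-deficient libraries (SD, n = 3), a ratio of 1.94. The fitted log2 difference was 0.88 (SE 0.14).

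The 8 chemokines together took 1.08%, 0.733% and 0.890% of all counts in WT libraries 1 to 3, and 1.67%, 2.22% and 2.05% in Ahrr-deficient libraries 1 to 3. Ccl6 and Ccl9 supplied between 97.8% and 98.9% of these chemokine counts in every library, so the sum follows those 2 genes.

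E230016K23Rik (ENSMUSG00000051832.7, annotated as a processed transcript) runs on the plus strand from chr11:83582056 to 83623693 and starts 3419 bases beyond the start of Ccl9, which is read in the opposite direction. The whole of Ccl6, with its 4 exons, lies within intron 1 of E230016K23Rik (chr11:83582134-83601260) on the opposite strand, and the 2 genes share no exonic base. The lncRNA was measured at 16.6, 9.21 and 14.3 CPM in WT libraries 1 to 3 (365, 58 and 102 counts). In Ahrr-deficient libraries 1 to 3 it was at 50.3, 69.0 and 63.3 CPM (179, 2877 and 626 counts). Every deficient library was above every WT library by a wide gap. Mean E230016K23Rik was 13.4 ± 3.8 CPM in WT and 60.9 ± 9.6 CPM in Ahrr-deficient libraries (SD, n = 3), a ratio of 4.55. The fitted log2 difference of 2.09 (SE 0.17) was the largest among the 6 fitted genes of the set.

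Ccl3, a ligand of Ccr1 made by activated macrophages, is ENSMUSG00000000982.5 at chr11:83647844-83649355 on the minus strand. Its level was 185, 150 and 110 CPM in WT libraries 1 to 3, and 167, 289 and 229 CPM in Ahrr-deficient libraries 1 to 3. The groups overlapped, since Ahrr-deficient replicate 1 was below WT replicate 1, while the other 2 deficient libraries were above all WT libraries. Mean Ccl3 was 148 ± 38 CPM in WT and 228 ± 61 CPM in Ahrr-deficient libraries (SD, n = 3). The fitted log2 difference was 0.55 (SE 0.22), and it was 0.34 without WT replicate 3 and 0.34 without Ahrr-deficient replicate 2.

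Ccl4, the neighbour of Ccl3 and a related inflammatory chemokine, is ENSMUSG00000018930.3 at chr11:83662584-83664683 on the plus strand. Its level was 8.43, 6.51 and 4.06 CPM in WT libraries 1 to 3 (185, 41 and 29 counts), and 5.62, 9.86 and 7.38 CPM in Ahrr-deficient libraries 1 to 3 (20, 411 and 73 counts). These ranges overlapped widely. The fitted log2 difference was 0.23 (SE 0.27), within its own error, and it turned to -0.04 when all libraries were thinned to the smallest total, to -0.05 without Ahrr-deficient replicate 2 and to -0.01 without WT replicate 3.

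Ccl2, the main monocyte attractant acting through Ccr2, lies apart from the Ccl9 to Ccl4 locus (ENSMUSG00000035385.5, chr11:82035571-82037453, plus strand). Its level was 2.46, 2.06 and 0.560 CPM in WT libraries 1 to 3 (54, 13 and 4 counts), and 2.53, 9.65 and 7.69 CPM in Ahrr-deficient libraries 1 to 3 (9, 402 and 76 counts). The groups did not overlap, but Ahrr-deficient replicate 1, with 9 counts, was level with WT replicate 1, so the separation rested on the other 2 deficient libraries. The fitted log2 difference was 1.93 (SE 0.45), with the widest error of the 6 fitted genes.

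Ccl7, also a Ccr2 ligand (chr11:82045712-82047525, plus strand), had 4, 0 and 0 counts in WT libraries 1 to 3 and 0, 15 and 4 counts in Ahrr-deficient libraries 1 to 3. Summed over each group, Ccl7 was at 0.113 CPM in WT (95% exact Poisson interval 0.0308 to 0.289) and at 0.345 CPM in Ahrr-deficient libraries (0.208 to 0.538). Those intervals overlap, and they cover counting error only.

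The Ccr4 ligands were near the floor. Ccl17 (chr8:94810453-94812036, plus strand) had 5, 0 and 1 counts in WT libraries 1 to 3 and 0, 10 and 5 counts in Ahrr-deficient libraries 1 to 3. Ccl22 (chr8:94745590-94751699, plus strand) had 4, 1 and 2 counts in WT libraries 1 to 3 and 1, 6 and 0 counts in Ahrr-deficient libraries 1 to 3. Summed over the groups, Ccl17 was at 0.170 CPM in WT (95% exact Poisson interval 0.0622 to 0.369) and 0.272 CPM in Ahrr-deficient libraries (0.152 to 0.449). Ccl22 was at 0.198 CPM in WT (0.0796 to 0.408) and 0.127 CPM in Ahrr-deficient libraries (0.0511 to 0.262). A difference between genotypes was not detectable at these counts for Ccl17 or Ccl22.

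**Figure D1:**
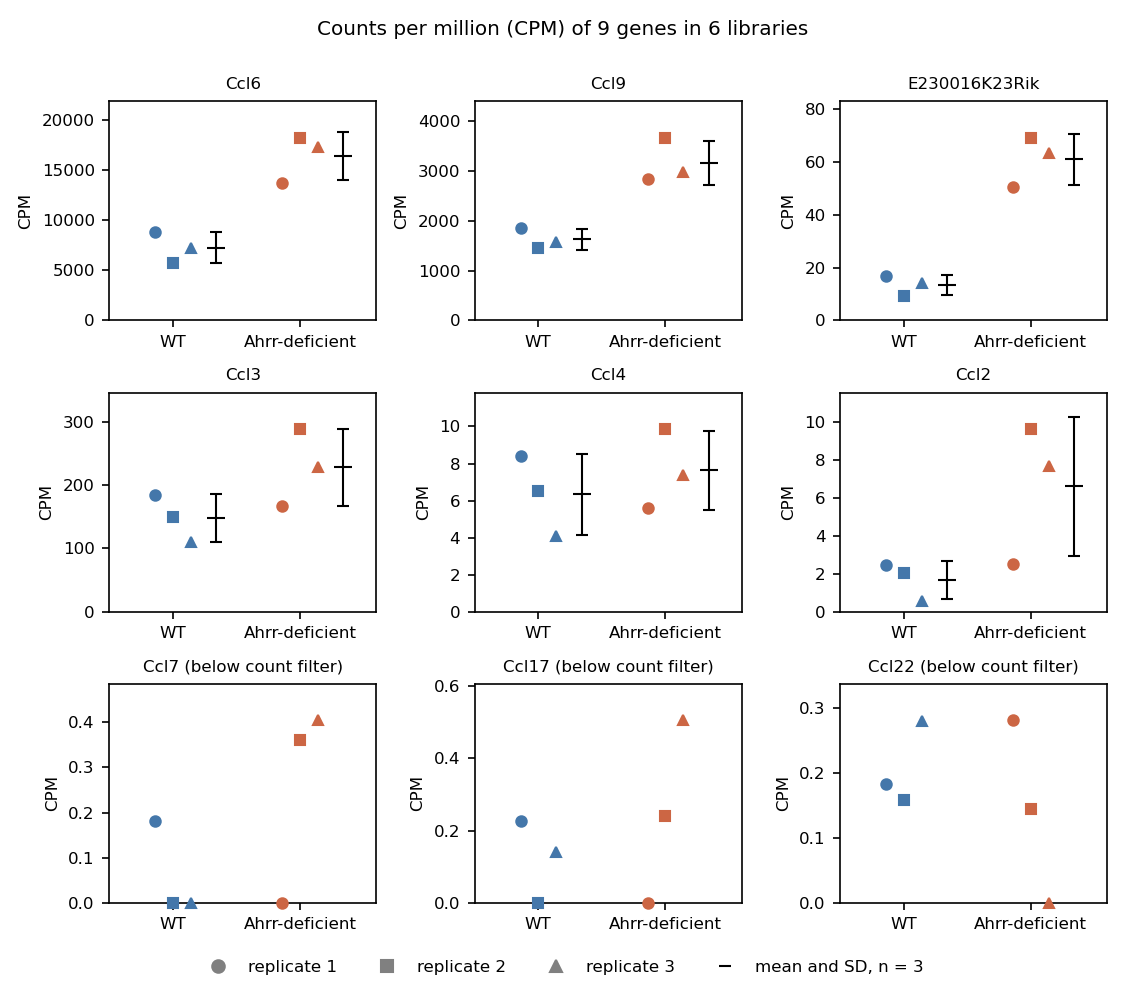
Level of each of the 9 genes in CPM (linear axes from 0) in 3 WT (blue) and 3 Ahrr-deficient (orange) libraries, with marker shapes for replicates and bars for the mean and SD of the 6 fitted genes. Ccl6, Ccl9 and E230016K23Rik separate clearly by genotype, Ccl2 barely separates at 2.46 and 2.53 CPM, and the other 5 genes overlap.

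In the fit over all genes, 4 of the 6 tested genes of the set (Ccl6, Ccl9, E230016K23Rik and Ccl2) were past the threshold of an adjusted p under 0.05, all of them higher in Ahrr-deficient libraries. Over all 11408 tested genes the same threshold was passed by 19.6% in either direction, by 9.62% as higher and by 9.95% as lower. The groups did not overlap in CPM for 4 of the 6, all higher, against 36.6% of all tested genes in either direction, 23.9% as higher and 12.8% as lower. CPM lacks the TMM scaling used in the fit, so groups can stand apart in CPM with little fitted difference. Ccr1, for example, did not overlap in CPM at a fitted log2 difference of 0.02. The median log2 difference was 1.00 over the 6 and 0.0076 over all tested genes. Since the genes were proposed with this contrast known, nothing is read from these counts.

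Levels of different genes were compared per length, as CPM per kilobase of exonic length (RPKM). In WT libraries the order of mean RPKM was Ccl6 (4032 ± 851), Ccl9 (535 ± 68), Ccl3 (193 ± 49), Ccl4 (9.60 ± 3.32), E230016K23Rik (4.75 ± 1.35) and Ccl2 (1.49 ± 0.88; all SD, n = 3). Each of these 6 was separated from its neighbours in the order in all 3 WT libraries. In Ahrr-deficient libraries the mean RPKM was 9123 ± 1316 for Ccl6, 1039 ± 145 for Ccl9, 298 ± 79 for Ccl3, 21.6 ± 3.4 for E230016K23Rik, 11.6 ± 3.2 for Ccl4 and 5.82 ± 3.23 for Ccl2 (SD, n = 3). E230016K23Rik and Ccl4 thus stood in opposite order in the 2 groups. Ccl4 and Ccl2 came close to touching in the deficient libraries, where the lowest Ccl4 value was 8.52 RPKM and the highest Ccl2 value was 8.48 RPKM. Ccl7, Ccl17 and Ccl22 stayed at or below 0.984 RPKM in every library, and their ranges overlapped each other in both groups.

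Ratios of counts within a library do not depend on how the libraries were scaled. E230016K23Rik had 1.90, 1.61 and 1.98 counts per 1000 Ccl6 counts in WT libraries 1 to 3, and 3.67, 3.80 and 3.67 in Ahrr-deficient libraries 1 to 3. The means were 1.83 ± 0.20 and 3.71 ± 0.07 (SD, n = 3), and the groups did not overlap, so the lncRNA differed more between genotypes than the gene inside its intron. Ccl6 had 4.72, 3.93 and 4.58 counts per Ccl9 count in WT libraries 1 to 3, and 4.81, 4.95 and 5.80 in Ahrr-deficient libraries 1 to 3, which left a narrow gap between 4.72 and 4.81. Ccl3 had 21.9, 23 and 27.0 counts per Ccl4 count in WT libraries 1 to 3 and 29.8, 29.3 and 31.0 in Ahrr-deficient libraries 1 to 3, also without overlap. The ratio of Ccl6 to Ccl3 was 47.5, 38.3 and 65.7 in WT libraries 1 to 3 and 81.9, 63.0 and 75.5 in Ahrr-deficient libraries 1 to 3, and there the groups overlapped.

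**Figure D2:**
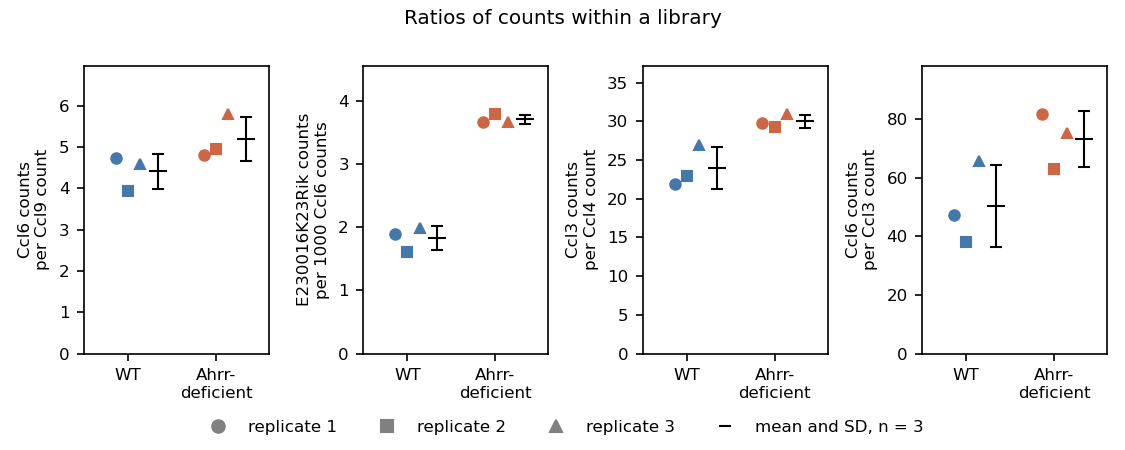
Ratios of counts between genes of the set within each library (linear axes from 0), by genotype, with marker shapes for replicates and bars for the mean and SD of 3 libraries. The number of E230016K23Rik counts per 1000 Ccl6 counts is between 1.61 and 1.98 in WT and between 3.67 and 3.80 in Ahrr-deficient libraries, while the Ccl6 to Ccl3 ratio overlaps between the groups.

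The libraries were ordered alike across the set. WT replicate 1 was the highest WT library and Ahrr-deficient replicate 2 the highest deficient library for 6 of the 6 fitted genes, and Ahrr-deficient replicate 1 was the lowest deficient library for 6 of 6. These are the deepest WT, the deepest deficient and the shallowest deficient library. The 3 deficient libraries followed the order of their total counts for 6 of 6 genes, against 26.9% of all tested genes, and the WT libraries for 3 of 6, against 24.5%. With every library thinned to the smallest total of 3556106 counts, the log2 difference was 1.11 for Ccl6, 0.88 for Ccl9, 2.11 for E230016K23Rik and 0.55 for Ccl3, and Ccl2 fell below the count filter.

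The genes around the Ccl9 to Ccl4 locus were described from the 10 nearest measured genes on either side and those within it. Of these 21 neighbours 17 were tested, and 5 rose and none fell in Ahrr-deficient libraries, with a median log2 difference of 0.23. Over all tested genes 9.62% were called as higher and 9.95% as lower, with a median of 0.0076. Wfdc21, which encodes a whey acidic protein domain protein and starts 123 kb after the end of E230016K23Rik, was at 45.1, 31.7 and 25.4 CPM in WT libraries 1 to 3, and at 81.8, 153 and 120 CPM in Ahrr-deficient libraries 1 to 3. Its log2 difference was 1.71 (SE 0.24, adjusted p = 0.00369, edgeR), with no overlap between the groups. Wfdc17, a related gene of macrophages that starts 80.3 kb after the lncRNA, was at 174, 129 and 154 CPM in WT and 314, 352 and 287 CPM in Ahrr-deficient libraries. The log2 difference of Wfdc17 was 0.99 (SE 0.11, adjusted p = 0.00158, edgeR), and again the groups did not overlap.

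Farther along, Acaca, the acetyl-CoA carboxylase of fatty acid synthesis, starts 506 kb after the lncRNA. It was at 17.1, 15.4 and 16.4 CPM in WT and 29.0, 40.3 and 32.6 CPM in Ahrr-deficient libraries, a log2 difference of 1.01 (SE 0.13, adjusted p = 0.00244, edgeR). Heatr6 rose by 0.30 (SE 0.09, adjusted p = 0.0472, edgeR) on the log2 scale. On the other side of the locus, beyond Ccl9, the 3 nearest tested genes did not pass the test, with log2 differences of 0.28 (SE 0.16) for Taf15, 0.42 (SE 0.19) for Mmp28 and 0.35 (SE 0.37) for 1700020L24Rik. Farther out on that side, AI662270 rose by 0.36 (SE 0.10, adjusted p = 0.0406, edgeR) on the log2 scale, and shares exonic bases with Gm11427 on the same strand, so its count is uncertain. The calls of AI662270 and Heatr6 were each lost in 9 of 11 alternative analyses, among them those without any 1 of the WT replicates or without Ahrr-deficient replicate 2 or 3.

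**Figure D3:**
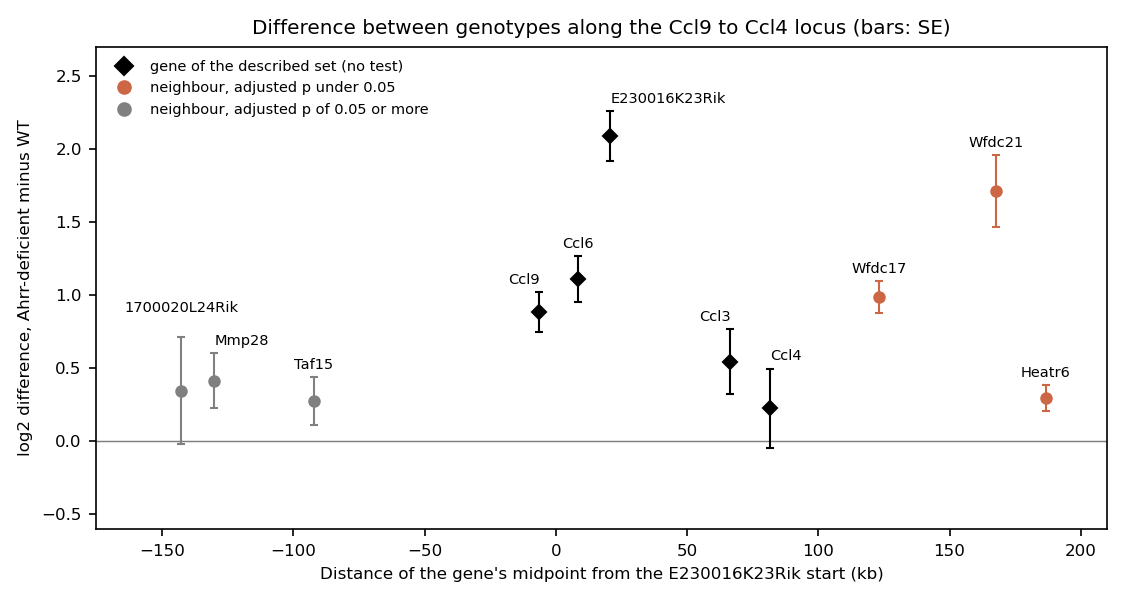
Log2 difference (Ahrr-deficient minus WT, bars SE) of the tested genes near the Ccl9 to Ccl4 locus, against the distance in kb of each gene's midpoint from the start of E230016K23Rik, with genes of the set in black and neighbours coloured by their adjusted p (edgeR). E230016K23Rik is the highest at 2.09 and Ccl4 the lowest of the set at 0.23, and Wfdc17 and Wfdc21, past Ccl4, stand at 0.99 and 1.71.

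Around Ccl2 and Ccl7, 16 of 20 neighbours were tested and 3 passed the threshold, with a median log2 difference of 0.07. That share is near the 19.6% of all tested genes called in either direction. Slfn5, a Schlafen family gene, was at 14.4, 18.7 and 13.3 CPM in WT and 10.7, 5.86 and 2.83 CPM in Ahrr-deficient libraries, a log2 difference of -1.51 (SE 0.34, adjusted p = 0.0183, edgeR), and it shares exonic bases with the antisense gene Slfn5os. Psmd11, a proteasome subunit gene, rose by 0.28 (SE 0.08, adjusted p = 0.0373, edgeR) and Rffl, a ubiquitin ligase gene that overlaps Lig3 on the opposite strand, rose by 0.36 (SE 0.10, adjusted p = 0.0384, edgeR) on the log2 scale. The calls were lost in 5, 8 and 8 of 11 alternatives for Slfn5, Psmd11 and Rffl, and none of the 3 was left without WT replicate 1, WT replicate 2 or Ahrr-deficient replicate 2.

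Around Ccl22 and Ccl17, 15 of 21 neighbours were tested and 3 passed the threshold, with a median log2 difference of 0.05. Here as well the share is near the 19.6% of all tested genes called in either direction. Cx3cl1, which encodes the chemokine fractalkine and lies between Ccl22 and Ccl17, was at 15.1, 10.2 and 18.5 CPM in WT and 6.75, 5.78 and 7.99 CPM in Ahrr-deficient libraries. The log2 difference of Cx3cl1 was -1.21 (SE 0.20, adjusted p = 0.00628, edgeR), with no overlap between the groups. Nlrc5, a transactivator of MHC class I genes, rose by 0.90 (SE 0.27, adjusted p = 0.0457, edgeR) on the log2 scale, and shares exonic bases with the antisense gene 9330175E14Rik. Cfap20, a gene of cilia, had a log2 difference of -0.36 (SE 0.11, adjusted p = 0.0476, edgeR). The calls of Nlrc5 and Cfap20 were each lost in 8 of 11 alternatives, among them those without WT replicate 1, 2 or 3 or Ahrr-deficient replicate 3.

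Among 16 other CC chemokine genes listed, 3 had a row in the annotated table (Ccl12, Ccl25 and Ccl27a) and 1, Ccl25, was tested, at 6.75, 7.30 and 6.02 CPM in WT and 5.62, 9.55 and 7.28 CPM in Ahrr-deficient libraries. Its log2 difference was 0.19 (SE 0.20, adjusted p = 0.532, edgeR), and none of the list passed the threshold. Ccl25 shares exonic bases with Elavl1 on the opposite strand. Ccl12 had 0.336 CPM or less and Ccl27a 0.560 CPM or less in every library. Ccl5 was among the 13 without a row. This list and those that follow were chosen with earlier results of these data known, so their shares of calls are a description.

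Of 14 receptors of CC chemokines used here, scavenging receptors included, 6 had a row and 4 were tested, of which 1 fell and none rose, with a median log2 difference of -0.06. Over all tested genes 19.6% were called in either direction. Ccrl2, an atypical receptor that presents the attractant chemerin, was at 265, 320 and 303 CPM in WT libraries 1 to 3, and at 93.1, 35.3 and 37.9 CPM in Ahrr-deficient libraries 1 to 3. The groups did not overlap. The log2 difference of Ccrl2 was -2.58 (SE 0.34, adjusted p = 0.00285, edgeR), a call kept in 11 of 11 alternatives.

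Ccr1, the receptor of Ccl6 and Ccl9, was at 273, 254 and 260 CPM in WT and 285, 277 and 279 CPM in Ahrr-deficient libraries. Its log2 difference was 0.02 (SE 0.08, adjusted p = 0.901, edgeR), so the receptor of the 2 most abundant ligands did not pass the test. Ccr2, the receptor of Ccl2 and Ccl7, varied widely, from 15.7 to 75.8 CPM in WT and from 45.1 to 101 CPM in Ahrr-deficient libraries. Its log2 difference was 0.82 (SE 0.47, adjusted p = 0.245, edgeR), and without WT replicate 3, the highest WT library, it was 1.59 with an adjusted p of 0.0304. Ccr10 had a log2 difference of -0.13 (SE 0.26, adjusted p = 0.753, edgeR). Ccr4, the receptor of Ccl17 and Ccl22, had no row in the annotated table.

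Of 21 transcription and signalling genes upstream of CC chemokines, all tested, 1 rose and 4 fell, with a median log2 difference of -0.06. That share of calls is near the 19.6% of all tested genes called in either direction. Irf4, a transcription factor of GM-CSF-treated macrophages and dendritic cells, was at 24.1, 18.4 and 24.8 CPM in WT and 53.1, 59.8 and 72.9 CPM in Ahrr-deficient libraries, a log2 difference of 1.4 (SE 0.13, adjusted p = 8.97e-04, edgeR). Fos, a subunit of AP-1, was at 326, 326 and 415 CPM in WT and 84.6, 59.4 and 60.0 CPM in Ahrr-deficient libraries, a log2 difference of -2.48 (SE 0.16, adjusted p = 3.08e-04, edgeR). Irf8, a myeloid transcription factor, was at 179, 155 and 175 CPM in WT and 137, 128 and 130 CPM in Ahrr-deficient libraries, a log2 difference of -0.44 (SE 0.07, adjusted p = 0.00631, edgeR). None of these 3 overlapped between the groups, and their calls were kept in 11 of 11 alternatives. The NF-kB subunit genes Relb and Rela had log2 differences of -0.39 (SE 0.10, adjusted p = 0.0327, edgeR) and -0.28 (SE 0.08, adjusted p = 0.0424, edgeR), calls that were lost in 7 and 9 of 11 alternatives. Both were lost without any 1 of the 3 WT replicates or without Ahrr-deficient replicate 3, and Rela also without Ahrr-deficient replicate 2. The 3 GM-CSF receptor genes on the list did not pass the test, with log2 differences of 0.10 (SE 0.15) for Csf2ra, -0.18 (SE 0.13) for Csf2rb and -0.23 (SE 0.13) for Csf2rb2.

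Of 9 genes that control the decay or stability of chemokine transcripts, all tested, 2 fell and none rose, with a median log2 difference of 0.08. This share, too, is near the 19.6% of all tested genes called in either direction. Zfp36, or tristetraprolin, a protein that binds AU-rich elements and promotes decay, was at 422, 421 and 523 CPM in WT and 204, 114 and 137 CPM in Ahrr-deficient libraries. Its log2 difference was -1.67 (SE 0.20, adjusted p = 0.00228, edgeR), and it shares exonic bases with the antisense gene Gm44710. Zc3h12a, or regnase-1, an endonuclease of inflammatory transcripts, was at 63.0, 58.7 and 59.1 CPM in WT and 38.2, 36.9 and 36.8 CPM in Ahrr-deficient libraries, a log2 difference of -0.77 (SE 0.09, adjusted p = 0.00173, edgeR). The groups did not overlap for Zfp36 or Zc3h12a.

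Of 10 proteases known to trim CC chemokines 7 had a row and 5 were tested, of which 3 rose and none fell, with a median log2 difference of 0.78. Over all tested genes 9.62% were called as higher and 9.95% as lower. Since this list was chosen with earlier results of these data known, nothing is read from its share of calls. Plau, or urokinase, was at 5.97, 6.03 and 3.50 CPM in WT and 9.56, 31.3 and 25 CPM in Ahrr-deficient libraries, a log2 difference of 2.10 (SE 0.35, adjusted p = 0.00634, edgeR). Mmp8, a collagenase, was at 135, 120 and 79.7 CPM in WT and 221, 290 and 189 CPM in Ahrr-deficient libraries, a log2 difference of 0.98 (SE 0.22, adjusted p = 0.0165, edgeR). Ctsl, a lysosomal cathepsin, was at 942, 952 and 775 CPM in WT and 1479, 1749 and 1383 CPM in Ahrr-deficient libraries, a log2 difference of 0.71 (SE 0.15, adjusted p = 0.0142, edgeR), and shares exonic bases with the antisense gene Gm47123. None of the 3 overlapped between the groups. Without Ahrr-deficient replicate 2 only Plau kept its call, since the adjusted p became 0.0584 for Mmp8 and 0.0505 for Ctsl; the call of Ctsl was also lost without WT replicate 1 (0.0621) or WT replicate 3 (0.0517).

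**Figure D4:**
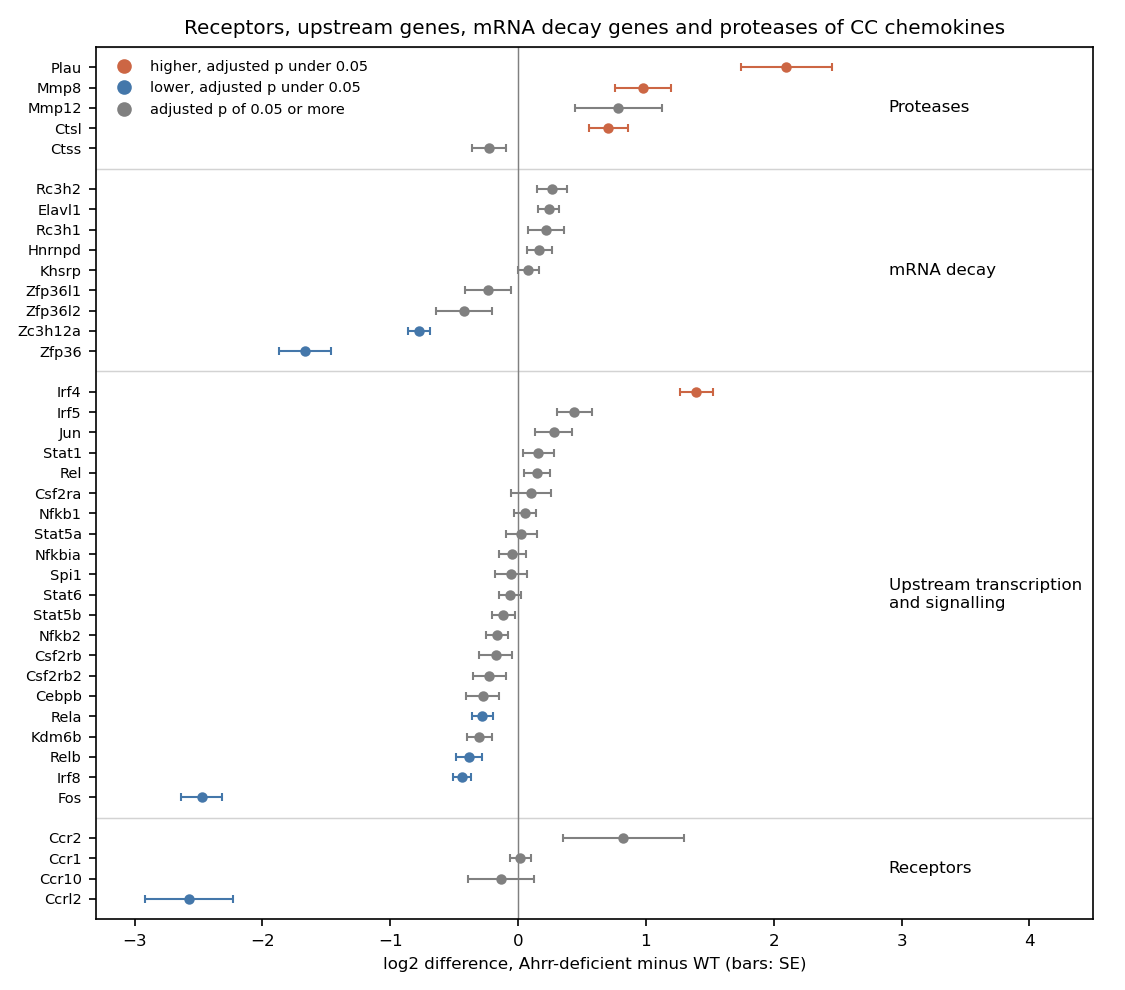
Log2 differences (Ahrr-deficient minus WT, bars SE) of the tested genes of the receptor, upstream, mRNA decay and protease lists, coloured by direction where the adjusted p (edgeR, over all tested genes) was under 0.05. Of the genes called as higher, Irf4, Plau, Mmp8 and Ctsl stand to the right at 0.71 to 2.10. Ccr2 at 0.82 and another protease at 0.78 lie in the same range without a call. Ccrl2, Fos and Zfp36 stand farthest to the left at -2.58 to -1.67, and Ccr1 lies at 0.02.

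The genes whose profile over the 6 libraries was most like that of each fitted gene were found by the root mean square (RMS) difference of centred log2 CPM among 10034 genes whose mean count was 50 or more. The likeness includes the difference between the genotypes, and is a description. Nearest to Ccl6 were Tfec (RMS difference 0.061), a transcription factor of macrophages, Bcl2a1a (0.092) and Il12rb2 (0.132). Bcl2a1a belongs to a family of near-identical copies, so its counts are uncertain, and Il12rb2 shares exonic bases with Serbp1 on the opposite strand. Tfec was at 81.0, 54.0 and 71.0 CPM in WT and 127, 189 and 171 CPM in Ahrr-deficient libraries, in the same order of libraries as Ccl6. Ccl9 was the 18th nearest to Ccl6, at 0.165.

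Nearest to Ccl9 were Ptpn12 (RMS difference 0.062), a tyrosine phosphatase gene, Gm13012 (0.071) and Pdss1 (0.074), with Ccl6 in 84th place. Nearest to E230016K23Rik were Sorbs3 (0.207), Piwil2 (0.219) and Hs3st3b1 (0.238), with Ccl6, the gene inside its intron, in 64th place at 0.516. As for every fitted gene of the set, the closest profiles of these 2 belonged to genes outside it.

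Nearest to Ccl3 were Prmt3 (RMS difference 0.111), Nip7 (0.128) and Dusp6 (0.138), a phosphatase gene of the ERK pathway. Nearest to Ccl4 were Irs2 (0.131), Map6 (0.166) and Mex3d (0.169), and Ccl3 was the 7th nearest at 0.188, the closest place that 1 gene of the set held to another. Nearest to Ccl2 were Etv5 (0.231), an ETS transcription factor gene, and Asns and Slc39a2 (both 0.342). Etv5 was at 3.05, 2.06 and 0.981 CPM in WT and 3.37, 11.1 and 7.89 CPM in Ahrr-deficient libraries, so like Ccl2 it was nearly level between WT replicate 1 and Ahrr-deficient replicate 1.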

How the data were processed

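PolyA RNA of 6 libraries, 3 WT and 3 Ahrr-deficient, was converted from 100 ng of RNA with a TruSeq kit and read as single 75 bp reads, per the labels' protocols. The authors deposited raw read counts for 53465 features without identifiers. A normalized signal with identifiers for 16111 genes was deposited as well, in which 100% of the values were whole multiples of 1 read (relative tolerance 1e-06). The recovered reads matched the rows of the raw count table and were used as counts. Features without an identifier held 0.0232% to 0.0511% of the counts. The submitters' processing notes name mm10, CASAVA 1.8.2, fastp 0.20.0, STAR 2.7.10b, SAMtools 1.16.1, R 4.3.1 and DESeq2 1.40.2, without their roles. The counting program, its annotation and its use of strand are not given in the sources used here, so antisense overlaps cannot be resolved.

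edgeR 4.0.16 (limma 3.58.1, R 4.3.3) fitted the counts by quasi-likelihood with genotype alone, TMM scaling (factors 0.904 to 1.04) and filterByExpr. Its p-values were two-sided, with Benjamini-Hochberg adjustment over 11408 genes and a threshold of 0.05. CPM is a count over the library total, and standard errors follow from the fold change and the F statistic. Replicates differed beyond sampling noise (chi-square per degree of freedom 5.79 to 175.07). WT replicate 2 gave 175.07 against WT replicate 1 and 70.0 against WT replicate 3. The value was 5.79 between WT replicates 1 and 3, and 10.7 to 17.2 between deficient libraries. Positions and exonic lengths are from GENCODE M21 (GRCm38), in which 16094 identifiers were found by stable ID and 14479 with the same version. No 2 genes of the set share a transcript stretch of 75 bases. Promoter windows are from RefSeq and were aligned with Biopython 1.88 (match 2, mismatch -3, gap opening -5, gap extension -2); matplotlib 3.10.9 and pandas 2.3.3 ran in Python 3.11.15.

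The genes, lists, motifs and markers were chosen with earlier results of these data known. Some listed genes are not reported here and were left out of the list and marker counts. Named were every gene of the set, every list gene or neighbour past the threshold (full values for at most 4 a list), and the 3 nearest profiles of each tested gene. Listed genes that did not pass were named after their values were seen. Alternatives were RLE scaling, no filter, DESeq2 1.42.0, the replicate number as a block, thinning to the smallest total, each library left out, a prior count of 0.5 in place of 2 for the profiles, and the motif search before the start only.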

Additional observations from a re-analysis of the deposited data

How the results depend on the processing

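The log2 differences of 32 named genes were recomputed under 11 alternatives, 351 values in all. Of these 264 stayed on their side of the threshold, 84 fell short of it and 3 newly passed it. None with a call reversed, while Ccl4 (-0.05 to 0.52), Ccl25 (-0.07 to 0.48) and Ccr1 (-0.03 to 0.05), which had none, changed sign. The differences ranged from 1.01 to 1.25 for Ccl6, 0.77 to 0.97 for Ccl9 and 1.95 to 2.30 for E230016K23Rik. The genes of the set were chosen on the same 6 libraries. Their ranges, and the calls of Ccl2 and Ccl3 that follow, are thus a description and no support. Ccl2 (1.55 to 2.43) fell short in 6 of 10: with the replicate block (1.76), without WT replicate 1, 2 or 3, and without Ahrr-deficient replicate 2 or 3. Ccl3 (0.34 to 0.71) passed in 2 of 11, with DESeq2 and without Ahrr-deficient replicate 1.

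Of all genes tested, 2232 were called, against 1390 with the replicate block, 1198 on thinning, and 694 (without WT replicate 1) to 3857 (without Ahrr-deficient replicate 1) with a library left out. Between WT and Ahrr-deficient libraries with the same replicate number, deviations correlated only weakly, at -0.17, 0.07 and 0.13. With 3 libraries per group, these values cannot decide whether the samples were paired. Calls among neighbours of the Ccl9 to Ccl4 locus went from 5 to 3 with the replicate block, thinning and DESeq2, and to 3 to 7 with a library left out. Calls near Ccl2 and Ccl7 went from 3 to 1 with the replicate block, 0 on thinning and with DESeq2, and 0 to 4 with a library left out. Calls near Ccl22 and Ccl17 went from 3 to 1 with no filter, the replicate block or thinning, and 1 to 3 with a library left out. With a library left out, upstream genes had 3 to 6 calls, proteases 1 to 4 and receptors 1 to 2, the last without WT replicate 3. The cause of these shifts was not tested. A prior count of 0.5 replaced 1 of the 3 nearest profiles for Ccl2 and for Ccl6. Before the start only, GCGTG was in 28.2%, TTCNNNGAA in 7.02%, TGANTCA in 6.75%, the NF-kB frame in 45.8% and TATAAA in 12.4% of windows, and Ccl22 no longer held GCGTG. Ccl7, Ccl17 and Ccl22 had at most 15 counts in any library, the deepest included, so little can be read from them.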
